A study of Mus musculus with 48 samples.

Results

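The comparison described here is that of tibialis anterior muscle collected at midnight with the same muscle collected at noon. All libraries labelled 00:00 (circadian time, CT, 18) were set against all libraries labelled 12:00 (CT30), which gave 8 libraries against 8, or 16 of the 48 libraries of the series. Each time held the same 4 groups of 2 mice. WT mice, which the study describes as carrying the floxed FoxP1 allele without Cre and which the sample labels give as C57BL/6J, either had a saline injection into the pancreas (WT control) or an injection of KPC pancreatic cancer cells at that site (WT KPC). FoxP1SkmKO mice, which carry homozygous floxed FoxP1 and Cre driven by the ACTA1 promoter of skeletal muscle fibers, received the same saline or cells (FoxP1SkmKO control and FoxP1SkmKO KPC). All mice were males aged between 39 and 55 weeks, entrained to a light-dark cycle with lights on in the morning and then moved to constant darkness before collection. Collection began at CT18 and went on to CT38, so midnight was the first time sampled, and time of day cannot be told apart from hours spent in darkness or from the order of collection.

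In mice, which are active at night, midnight falls in the active phase and noon in the rest phase. The molecular clock is a feedback loop of transcription. BMAL1 (encoded by Arntl) pairs with CLOCK or NPAS2 and activates genes through E-boxes, among them the Period and Cryptochrome genes, whose proteins then block the pair. A second loop joins it through the REV-ERB repressors (Nr1d1 and Nr1d2) and the ROR activators, which compete for RORE sites in Arntl, and another arm runs through DBP, TEF and HLF, which activate D-box genes that NFIL3 represses. In skeletal muscle this clock is known to time genes of glucose and lipid use.

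The libraries held between 14480867 and 20787784 counts on genes, with medians of 18529168 at midnight and 16363227 at noon. Foxp1 itself did not separate the genotypes, with 0.596 to 0.971 fragments per kilobase of transcript, scaled to library size (FPKM) in WT and 0.468 to 0.641 FPKM in FoxP1SkmKO muscle, so the genotype labels were not checked by it. The defining genes of muscle fibers were high at both times, with summed levels of 60917 to 70331 FPKM at midnight and 59001 to 71860 FPKM at noon. One midnight library stood apart, since the second FoxP1SkmKO KPC mouse had 102 FPKM of Alb and 32.9 FPKM of Apoa1, both transcripts of liver, while noon libraries had at most 0.156 FPKM of Alb and were listed at 0 for Apoa1. Lower levels of Alb were present in the second WT KPC mouse (4.56 FPKM) and the second FoxP1SkmKO control mouse (1.62 FPKM) at midnight.

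Of 14878 genes tested with edgeR's quasi-likelihood test, 2399 (16.1%) differed between midnight and noon at a Benjamini-Hochberg adjusted p under 0.05. Higher levels at midnight were called for 1214 genes (8.16%) and higher levels at noon for 1185 genes (7.96%). The median size of a called difference was 1.32-fold for genes higher at midnight and 1.23-fold for genes higher at noon. A difference of at least 2-fold was reached by 179 of the former and 54 of the latter. The FPKM ranges of the 8 midnight and 8 noon mice did not overlap for 328 genes (2.2%), with all midnight mice above for 140 (0.941%) and all noon mice above for 188 (1.26%). The same model called 21.6% of 14821 genes for CT22 against CT34 and 10.6% of 14753 genes for CT26 against CT38, the other pairs of opposite times. All log2 differences below are midnight minus noon from counts, with their standard errors (SE), and all levels are the lowest, median and highest FPKM of 8 mice.

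Clock genes differed between the times in all but a few cases. Of 20 tested, 4 were higher at midnight, 12 were higher at noon and 4 did not pass the test, and the CPM ranges of 12 did not overlap. All 16 that passed had the same direction in the 4 groups of mice, as did 2259 of all 2399 genes called. The sequences around the starts of 6 genes at the center of this comparison are given first, because the motifs that clock factors are known to bind can be seen in them. They are RefSeq sequences of GRCm38.p6, which is another build than that of the deposited counts, and run from 250 bases before to 50 bases after a gene start. Capitals mark matches on either strand to the E-box (CACGTG), the E-prime-box (CACGTT), the D-box (TTATGTAA or TTACGTAA) or the core of the RORE (TAGGTCA or TGGGTCA). Ciart, Per1, Nr1d1 and Pfkfb3 were higher at noon, and Arntl and Nfil3 were higher at midnight.
Ciart, chr3:95882179-95882478, minus strand: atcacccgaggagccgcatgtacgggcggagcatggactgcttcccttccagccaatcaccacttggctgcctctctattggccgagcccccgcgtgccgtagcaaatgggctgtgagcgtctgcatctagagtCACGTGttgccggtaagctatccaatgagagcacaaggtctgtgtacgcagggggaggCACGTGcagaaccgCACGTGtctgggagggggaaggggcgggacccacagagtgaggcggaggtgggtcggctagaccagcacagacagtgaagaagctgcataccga
Per1, chr11:69098699-69098998, plus strand: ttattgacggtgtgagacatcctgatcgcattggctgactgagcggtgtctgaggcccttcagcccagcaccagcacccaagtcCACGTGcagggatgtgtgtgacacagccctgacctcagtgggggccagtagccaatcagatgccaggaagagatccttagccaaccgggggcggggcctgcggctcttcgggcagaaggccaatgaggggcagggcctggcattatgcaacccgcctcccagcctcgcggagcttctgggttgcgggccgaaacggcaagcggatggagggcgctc
Nr1d1, chr11:98775328-98775627, minus strand: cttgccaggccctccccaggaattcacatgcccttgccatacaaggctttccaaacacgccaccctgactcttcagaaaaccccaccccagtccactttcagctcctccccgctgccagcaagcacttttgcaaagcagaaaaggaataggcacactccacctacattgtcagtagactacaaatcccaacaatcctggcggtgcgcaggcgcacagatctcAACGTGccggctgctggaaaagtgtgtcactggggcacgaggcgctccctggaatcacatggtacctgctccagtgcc
Pfkfb3, chr2:11502041-11502340, minus strand: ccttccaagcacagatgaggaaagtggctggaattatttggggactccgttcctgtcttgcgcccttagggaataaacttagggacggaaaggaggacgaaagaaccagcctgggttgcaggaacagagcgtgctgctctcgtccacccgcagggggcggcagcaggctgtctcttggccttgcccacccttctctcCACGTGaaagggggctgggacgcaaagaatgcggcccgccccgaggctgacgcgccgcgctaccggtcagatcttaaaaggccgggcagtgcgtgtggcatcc
Arntl, chr7:113207261-113207560, plus strand: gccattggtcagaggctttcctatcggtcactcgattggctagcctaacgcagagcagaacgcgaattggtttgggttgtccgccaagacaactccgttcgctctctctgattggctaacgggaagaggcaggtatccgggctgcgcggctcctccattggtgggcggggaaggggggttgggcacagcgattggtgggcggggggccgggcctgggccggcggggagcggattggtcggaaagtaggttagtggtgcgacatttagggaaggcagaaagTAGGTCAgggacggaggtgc
Nfil3, chr13:52980990-52981289, minus strand: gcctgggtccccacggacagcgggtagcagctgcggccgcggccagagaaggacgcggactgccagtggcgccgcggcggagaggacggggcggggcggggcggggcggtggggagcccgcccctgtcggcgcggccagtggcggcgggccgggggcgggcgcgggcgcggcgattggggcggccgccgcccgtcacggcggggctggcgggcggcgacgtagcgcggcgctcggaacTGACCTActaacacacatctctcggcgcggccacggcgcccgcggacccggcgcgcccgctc

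The promoter of Ciart held 3 E-boxes, and those shown of Per1 and Pfkfb3 held 1 each. The RORE core was found in the promoters shown of Arntl and Nfil3, and Nr1d1 held an E-prime-box. Arntl, Per1 and Pfkfb3 each had another promoter, not shown, with no match. Promoters were available for 17 of the 20 clock genes. Of the 17, 7 had no match to any of these 4 motifs, among them Dbp, Nr1d2 and Npas2. The CRE (TGACGTCA), the glucocorticoid response element (GRE) and the heat shock element (HSE) were searched as well, and among the clock genes there was a single match, to the CRE in Hlf. Across the 13758 promoters of 10717 genes tested, the E-box was present in 9.68%. The share was 7.72% for genes higher at midnight and 11.4% for genes higher at noon. For genes at least 2-fold higher it was 12 of 153 promoters (7.84%) at midnight and 7 of 26 (26.9%) at noon. The RORE core was in 5.20% of all promoters, in 4.57% for genes higher at midnight and in 5.93% for genes higher at noon, and for genes at least 2-fold higher in 12 of 153 (7.84%) at midnight and 0 of 26 at noon. The E-prime-box was in 5.20% of all promoters, in 4.73% for genes higher at midnight and in 4.1% for genes higher at noon. For genes at least 2-fold higher it was in 9 of 153 (5.88%) at midnight and 1 of 26 (3.85%) at noon. The CRE was in 2.82% of all promoters, the D-box in 0.698%, the HSE in 0.523% and the GRE in 0.00727%. These shares are descriptions of the windows searched and were not tested.

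Among the activators, Arntl was higher at midnight. Its levels were 2.82, 3.43 and 3.75 FPKM at midnight and 1.02, 1.33 and 1.67 FPKM at noon, log2 difference 1.35 ± 0.09 (SE), adjusted p 1.5e-08. The groups did not overlap. Npas2, the partner of BMAL1 that can stand in for CLOCK, was expressed at a low level of 0.135, 0.19 and 0.299 FPKM at midnight and 0.0254, 0.101 and 0.151 FPKM at noon, log2 difference 1.12 ± 0.28 (SE), adjusted p 0.011. Its ranges overlapped. Clock (log2 difference 0.09 ± 0.07 (SE), adjusted p 0.40) and Arntl2 (log2 difference 0.13 ± 0.27 (SE), adjusted p 0.79) did not pass the test.

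The repressors were higher at noon with the exception of Cry1. Ciart, which encodes the BMAL1-binding repressor CHRONO, had 0.294, 0.43 and 0.845 FPKM at midnight and 3.22, 4.92 and 6.13 FPKM at noon, log2 difference -3.25 ± 0.19 (SE), adjusted p 1.2e-09. This was the largest difference among the clock genes, and every noon mouse was above every midnight mouse. Per1 had 2.74, 5.52 and 10.2 FPKM at midnight and 8.28, 12 and 23.2 FPKM at noon, log2 difference -1.26 ± 0.11 (SE), adjusted p 3.8e-07. The ranges of Per1 overlapped, and FoxP1SkmKO KPC mice had the highest levels at both times. Per2 rose from a median of 1.74 FPKM at midnight to 3.36 FPKM at noon (log2 difference -0.9 ± 0.10 (SE), adjusted p 4.8e-06) and Per3 from 3.43 to 6.32 FPKM (log2 difference -0.88 ± 0.06 (SE), adjusted p 2.9e-08). Cry2 had 6.12, 6.47 and 6.86 FPKM at midnight and 7.96, 8.39 and 9.26 FPKM at noon, log2 difference -0.39 ± 0.04 (SE), adjusted p 4.2e-06. Cry1 went the other way, with 5.89, 7.11 and 7.56 FPKM at midnight and 3.73, 4.62 and 5.08 FPKM at noon, log2 difference 0.61 ± 0.07 (SE), adjusted p 1.8e-05, and neither cryptochrome gene overlapped between the times. The DEC repressors Bhlhe40 (log2 difference -0.58 ± 0.06 (SE), adjusted p 4.8e-06) and Bhlhe41 (log2 difference -0.45 ± 0.09 (SE), adjusted p 0.002) were also higher at noon.

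The REV-ERB genes were both higher at noon. Nr1d1 had 10.1, 13.4 and 20.4 FPKM at midnight and 39.9, 55.1 and 70.8 FPKM at noon, log2 difference -2.02 ± 0.12 (SE), adjusted p 1.9e-09. Nr1d2 had 15.3, 17 and 20.3 FPKM at midnight and 25.6, 27.4 and 29.2 FPKM at noon, log2 difference -0.66 ± 0.05 (SE), adjusted p 2.2e-07. No mouse of either time reached the range of the other for these genes. Rora, which encodes an activator acting at the same sites, did not pass the test (log2 difference -0.1 ± 0.06 (SE), adjusted p 0.29).

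The D-box factors divided by their known action. The activator Dbp had 6.15, 7.25 and 9.77 FPKM at midnight and 39, 42.2 and 46.1 FPKM at noon, log2 difference -2.49 ± 0.08 (SE), adjusted p 6.0e-13. The repressor Nfil3 had 18.1, 20.3 and 25.5 FPKM at midnight and 4.51, 6.78 and 8.62 FPKM at noon, log2 difference 1.64 ± 0.09 (SE), adjusted p 6.9e-10. Neither range overlapped, and the 2 genes moved in opposite directions. The related activators Tef (log2 difference -0.42 ± 0.05 (SE), adjusted p 9.6e-06) and Hlf (log2 difference -0.48 ± 0.08 (SE), adjusted p 4.3e-04) were higher at noon by smaller amounts.

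**Figure D1:**
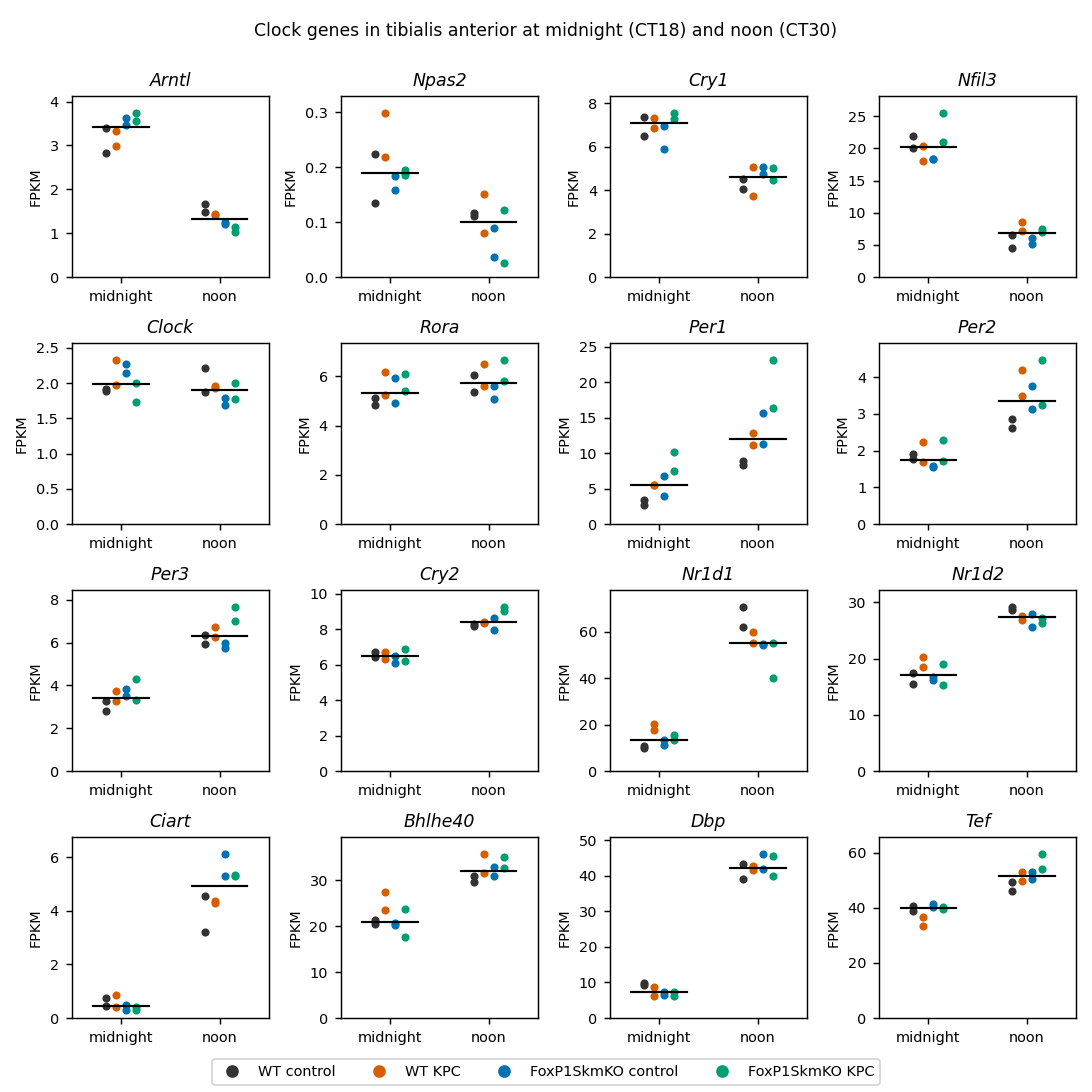
Level of 16 clock genes in FPKM (vertical axes, starting at 0) in each mouse at midnight and at noon, colored by genotype and tumor group, with the median of 8 mice as a line. Dbp lay between 6.15 and 9.77 FPKM at midnight and between 39.0 and 46.1 FPKM at noon, while Clock and Rora overlapped between the times.

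Genes outside the core clock with the largest differences included enzymes of fuel use and, at noon, transfer RNA genes of the mitochondrial genome. Pfkfb3, which makes the activator of the glycolytic enzyme phosphofructokinase, had 5.89, 8.04 and 12.2 FPKM at midnight and 35.6, 61.3 and 82.5 FPKM at noon, log2 difference -2.83 ± 0.17 (SE), adjusted p 2.1e-09. Coq10b, a mitochondrial coenzyme Q-binding protein, had 1.06, 1.29 and 1.81 FPKM at midnight and 2.48, 3.47 and 3.99 FPKM at noon, log2 difference -1.35 ± 0.11 (SE), adjusted p 1.3e-07. For both genes every noon mouse was above every midnight mouse. Snrpf, a core protein of the spliceosome (log2 difference -1.36 ± 0.18 (SE), adjusted p 4.2e-05), and Chac1, which breaks down glutathione (log2 difference -1.26 ± 0.26 (SE), adjusted p 0.0025), were higher at noon as well. The transfer RNA genes were mt-Tl2 (log2 difference -2.30, adjusted p 9.6e-06), mt-Ts2 (-1.66, adjusted p 9.8e-05) and mt-Th (-1.51, adjusted p 0.0016). The source of their difference was not tested.

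Higher at midnight, Pnpla3, a lipase of lipid droplets, had 7.2, 8.07 and 9.74 FPKM at midnight and 1.53, 1.86 and 2.9 FPKM at noon, log2 difference 2.1 ± 0.11 (SE), adjusted p 2.2e-10. G0s2, an inhibitor of the triglyceride lipase ATGL, had 22, 32.4 and 48.4 FPKM at midnight and 5.6, 10.7 and 19.3 FPKM at noon, log2 difference 1.6 ± 0.19 (SE), adjusted p 1.5e-05. The myogenic factor Myod1 had 29.5, 40.8 and 50.6 FPKM at midnight and 7.84, 12.7 and 28 FPKM at noon, log2 difference 1.54 ± 0.16 (SE), adjusted p 4.0e-06. None of these genes overlapped between the times. The same held for Slc16a9, a monocarboxylate transporter family member (log2 difference 1.6 ± 0.13 (SE), adjusted p 1.4e-07), Prima1, which anchors acetylcholinesterase (log2 difference 1.5 ± 0.12 (SE), adjusted p 1.6e-07), and Odf3l2 (log2 difference 1.96 ± 0.19 (SE), adjusted p 1.6e-06), whereas Cyp26b1, which breaks down retinoic acid (log2 difference 1.63 ± 0.40 (SE), adjusted p 0.0088), overlapped.

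Among genes of glycogen, insulin and amino acid handling, single members differed clearly, while the glycogen and amino acid lists were called about as often as all genes (16.1%). Of 18 glycogen genes, 3 were higher at midnight and 0 at noon (16.7% called). Without the second FoxP1SkmKO KPC mouse at noon these counts were 2 and 4. Ppp1r3c, which targets a phosphatase to glycogen, had 131, 147 and 193 FPKM at midnight and 47.2, 61.9 and 75 FPKM at noon, log2 difference 1.36 ± 0.08 (SE), adjusted p 1.9e-09. Gys1, muscle glycogen synthase, differed less, with 141, 148 and 166 FPKM at midnight and 115, 122 and 136 FPKM at noon, log2 difference 0.29 ± 0.04 (SE), adjusted p 2.4e-04. The ranges of both were separate. Of 30 genes of the insulin, IGF1 and mTOR pathway, 6 were higher at midnight and 2 at noon (26.7% called), with a median log2 difference of 0.08 against 0.00 over all genes tested. They included Pik3r1, the regulatory subunit of PI3-kinase (log2 difference 0.95 ± 0.07 (SE), adjusted p 1.0e-07), Irs1 (log2 difference 0.39 ± 0.07 (SE), adjusted p 7.6e-04), Foxo1 (log2 difference 0.5 ± 0.08 (SE), adjusted p 4.3e-04) and Sesn2, an inhibitor of mTOR complex 1 (log2 difference 0.59 ± 0.11 (SE), adjusted p 0.0011). Tbc1d1, which controls traffic of the glucose transporter GLUT4, had 29.2, 33.9 and 38 FPKM at midnight and 15.5, 17.2 and 24.3 FPKM at noon, log2 difference 0.91 ± 0.07 (SE), adjusted p 1.1e-07. Of 15 genes of glutamine and branched-chain amino acids, 2 were higher at midnight and 0 at noon (13.3% called), and 2 and 3 without the same noon mouse. The transporter Slc38a2 had 17.7, 19.6 and 20.8 FPKM at midnight and 9.42, 11 and 13.9 FPKM at noon, log2 difference 0.8 ± 0.06 (SE), adjusted p 6.3e-08.

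Of 19 glucocorticoid-responsive genes, 6 were higher at midnight and 2 at noon (42.1% called, against 16.1% of all genes tested). Fkbp5, a co-chaperone of the glucocorticoid receptor, had 3.78, 6.02 and 7.55 FPKM at midnight and 2.05, 2.98 and 3.99 FPKM at noon, log2 difference 1.05 ± 0.14 (SE), adjusted p 4.4e-05. Zbtb16 (log2 difference 0.79 ± 0.11 (SE), adjusted p 9.8e-05) and Tsc22d3, also known as GILZ (log2 difference 0.3 ± 0.06 (SE), adjusted p 0.0016), were also higher at midnight, and the ranges of all 3 overlapped. Lipid and sterol synthesis genes included 4 higher at midnight and 1 at noon of 24 (20.8% called), a share near that of all genes. Among those higher at midnight was Fasn, fatty acid synthase (log2 difference 0.65 ± 0.13 (SE), adjusted p 0.0025). Of 25 heat shock genes, 6 were higher at midnight and 2 at noon (32% called). They included Hspa1b (log2 difference 0.96 ± 0.17 (SE), adjusted p 7.1e-04) at midnight and the mitochondrial co-chaperonin Hspe1 (log2 difference -0.43 ± 0.07 (SE), adjusted p 2.1e-04) at noon. The count at midnight was 3 without the second FoxP1SkmKO control mouse at midnight or without the first FoxP1SkmKO control mouse at noon. Immediate early genes were divided, with 5 higher at midnight and 6 at noon of 24 (45.8% called). Of 12 ubiquitin ligases and related genes of atrophy, 2 were higher at midnight and 3 at noon (41.7% called). Asb2 (log2 difference 0.64 ± 0.05 (SE), adjusted p 5.0e-08) and Cblb (log2 difference 0.33, adjusted p 0.018) were higher at midnight. Trim63, which encodes MuRF1 (log2 difference -0.21 ± 0.05 (SE), adjusted p 0.0058), and Fbxo30 (log2 difference -0.45 ± 0.07 (SE), adjusted p 2.9e-04) were among those higher at noon.

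**Figure D2:**
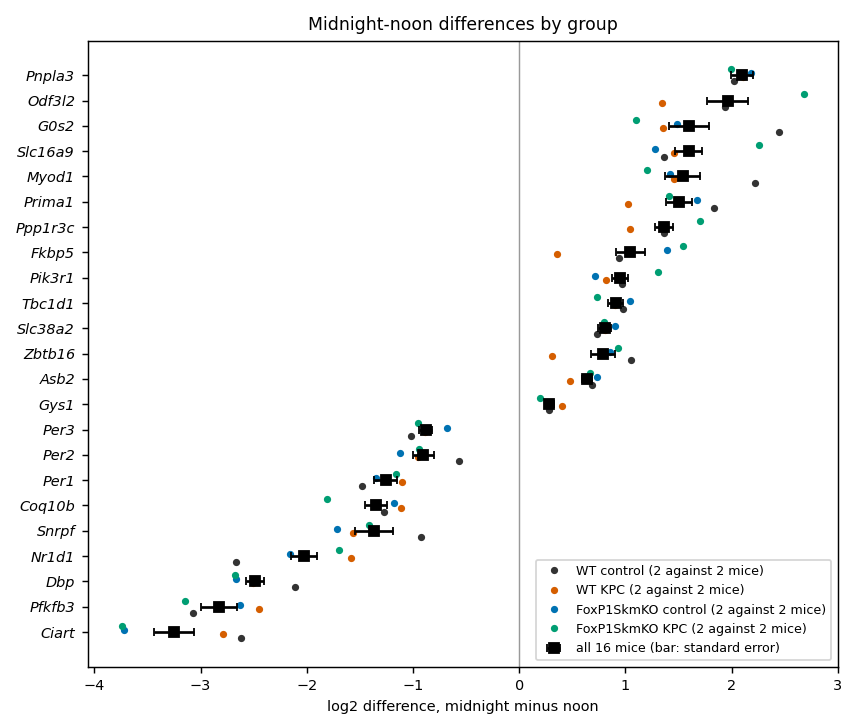
Log2 difference, midnight minus noon, of 23 genes: squares show the fit to all 16 mice with its standard error, and circles show each genotype and tumor group (2 mice at each time). Pnpla3 was higher at midnight in every group by 2.00 to 2.19, and Ciart was lower in every group by 2.62 to 3.74 on the log2 scale.

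Nuclear genes of oxidative phosphorylation were lower at midnight than at noon. Of 79 tested, 52 were higher at noon and 1 at midnight (67.1% called), with a median log2 difference of -0.25. Over all genes tested, 7.96% were higher at noon and 8.16% at midnight. Complex IV had 13 of 13 subunits higher at noon, complex I had 25 of 38, complex V had 8 of 14, complex III had 4 of 9 and complex II had 1 of 4. The subunit higher at midnight was Ndufa4l2, which was named after its value was seen. Ndufa1, a complex I subunit, had 45.8, 54.4 and 78.4 FPKM at midnight and 97.8, 108 and 128 FPKM at noon, log2 difference -0.94 ± 0.09 (SE), adjusted p 1.6e-06. Cox7c, a complex IV subunit, had 88.3, 102 and 108 FPKM at midnight and 122, 142 and 165 FPKM at noon, log2 difference -0.52 ± 0.05 (SE), adjusted p 5.9e-07. These ranges did not overlap. By CPM, 19 of the 79 genes had all noon mice above all midnight mice, against 1.26% of all genes tested. Cytosolic ribosomal protein genes were higher at noon for 39 of 82 and at midnight for 1 (Rpl24, also named after its value was seen), with a median of -0.17, and proteasome genes for 17 of 48 and 0, with a median of -0.09. Rpl35a had 5.07, 5.58 and 8.95 FPKM at midnight and 8.22, 11.6 and 13.7 FPKM at noon, log2 difference -0.88 ± 0.10 (SE), adjusted p 1.5e-05, with overlapping ranges. Midnight stood apart from the other 5 times for the oxidative phosphorylation and ribosomal protein lists, and noon did not. As log2 of the median FPKM over that at noon, the median oxidative phosphorylation gene was at -0.28 at CT18 and between -0.037 and 0.052 at CT22, CT26, CT34 and CT38. The median ribosomal protein gene was at -0.18 at CT18 and between -0.045 and 0.0069 at those 4 times. Of 12 fast-fiber genes 4 were higher at noon, among them Pvalb (log2 difference -0.28 ± 0.06 (SE), adjusted p 0.0025). Of the 13 protein-coding genes of the mitochondrial genome 4 were higher at noon, among them mt-Nd4l (log2 difference -1.71 ± 0.44 (SE), adjusted p 0.012), while the list's median log2 difference was 0.014 and 7 of the 13 lay above 0.

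Short genes as a class were lower at midnight. Genes under 1000 bases had a median log2 difference of -0.13, with 16.5% higher at noon and 3.75% at midnight, while among genes over 8000 bases 4.98% were higher at noon and 10.9% at midnight. With the trend of counts on gene length removed in each library, 43 of the 79 oxidative phosphorylation genes, 28 of the 82 ribosomal protein genes and 10 of the 48 proteasome genes were higher at noon, as were 2 of the 12 fast-fiber genes and 2 of the 13 mitochondrial genome genes. The clock counts were 4 and 12 in both fits.

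**Figure D3:**
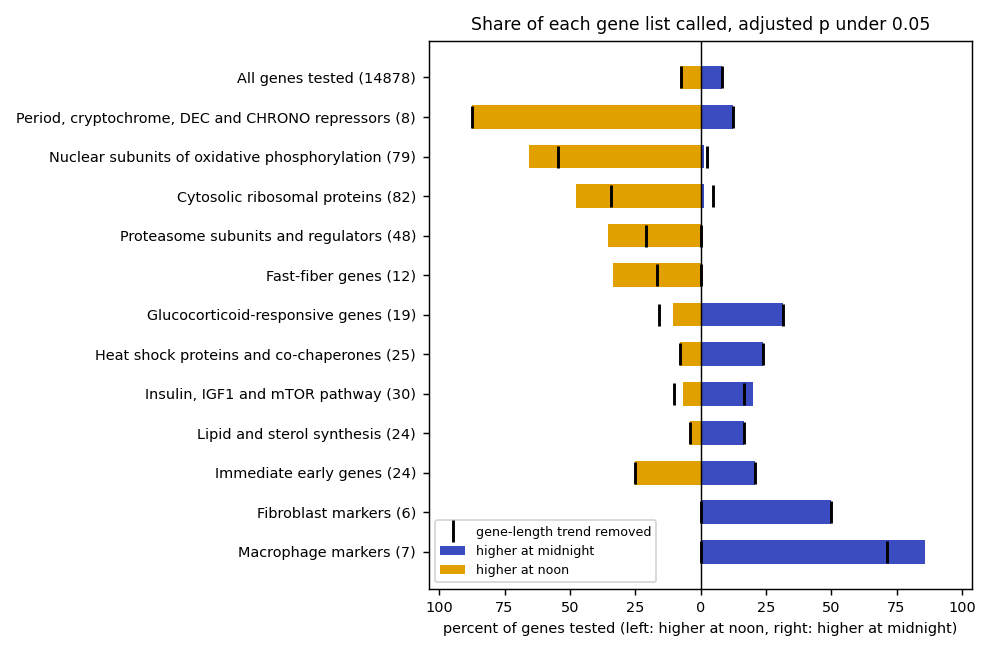
Percent of the genes tested in each list (number in parentheses) that were called higher at noon (left) or at midnight (right). Ticks give the same after the gene-length trend was removed. Of the oxidative phosphorylation genes 52 of 79 were higher at noon, and 43 after that removal.

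Among markers of muscle's cells other than fibers, those of macrophages differed most often. Of 7 macrophage markers, 6 were higher at midnight (85.7% called, against 16.1% of all genes tested). The summed level of the 7 was 13.4, 19.4 and 36.8 FPKM (lowest, median and highest) at midnight and 5.80, 9.67 and 20.3 FPKM at noon. The complement component C1qa had 4.34, 7.03 and 13.5 FPKM at midnight and 1.9, 2.91 and 7.51 FPKM at noon, log2 difference 1.21 ± 0.26 (SE), adjusted p 0.004. None of the macrophage markers was at 0 in all libraries, and none had separate ranges by CPM. Of 6 fibroblast markers, 3 were higher at midnight, with sums of 24.1, 70.2 and 79.8 FPKM at midnight and 23.8, 41.3 and 94.6 FPKM at noon, and Pdgfra (log2 difference 1.02 ± 0.22 (SE), adjusted p 0.0035) was one of them. In separate fits, macrophage markers higher at midnight numbered 4 in control, 0 in KPC, 7 in WT and 0 in FoxP1SkmKO mice. Fibroblast markers numbered 3, 0, 3 and 0 in the same order. These fits hold fewer mice, and a lack of calls does not show that the groups differed. Of 5 erythroid markers, 2 were higher at midnight, with median sums of 228 and 147 FPKM. Endothelial and adipocyte markers had 1 of 7 each higher at noon (14.3% called), a share near that of all genes. None of 5 Schwann cell, 5 tendon, 3 smooth muscle, 2 neutrophil and 1 lymphocyte markers tested was called. In bulk muscle, more cells of a type and more RNA in each cell cannot be told apart, and the part of these cells in the gene groups above was not tested.

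The 18S ribosomal RNA gene Rn18s-rs5 was higher at midnight. It had 504, 1238 and 2718 FPKM at midnight and 274, 367 and 540 FPKM at noon (log2 difference 1.73 ± 0.23 (SE), adjusted p 4.4e-05), with a small overlap of the ranges. Messenger RNA had been selected by its poly-A tail before sequencing, per the labels, and the source of the 18S difference was not tested. Whether muscles of different times were extracted and made into libraries together is not given in the sources used here. For every gene compared here, 18S rRNA and the subunit and macrophage genes above among them, time of day cannot be told apart from such handling. Over the 6 times collected, the median of Rn18s-rs5 was 1238, 1590, 751, 367, 370 and 421 FPKM from CT18 to CT38. Ndufa1 had medians of 54.4, 86.9, 80.8, 108, 109 and 117 FPKM, and C1qa had 7.03, 6.13, 6.14, 2.91, 2.91 and 4.16 FPKM. At CT38 all 3 were nearer to their noon than to their midnight levels. Of the 16 clock genes called, 8 were nearer to their midnight level at CT38 and 8, among them Arntl and the 3 Period genes, nearer to their noon level, on the log2 scale. Per2 had 1.74, 0.831, 1.12, 3.36, 6.14 and 4.49 FPKM over the 6 times. Dbp was at 7.25, 4.65, 16.7, 42.2, 39.5 and 15 FPKM and Pfkfb3 at 8.04, 14.1, 37.7, 61.3, 22.6 and 6.87 FPKM over the 6 times. With the level of Rn18s-rs5 as a term in the model, 37 genes were higher at midnight and 19 at noon, and the calls numbered 4 for oxidative phosphorylation at noon, 0 for ribosomal proteins at noon and 0 for macrophage markers at midnight. Since Rn18s-rs5 itself differed between the times, this term also takes up part of any difference between them. Dbp (log2 difference -2.45), Nr1d1 (-1.81), Ciart (-2.78), Arntl (1.14), Pfkfb3 (-3.17), Pnpla3 (2.08) and Ppp1r3c (1.43) passed the test with it. The clock genes Per2, Cry2, Bhlhe40, Bhlhe41, Tef, Hlf and Npas2, which had been called without the term, did not pass with it.

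**Figure D4:**
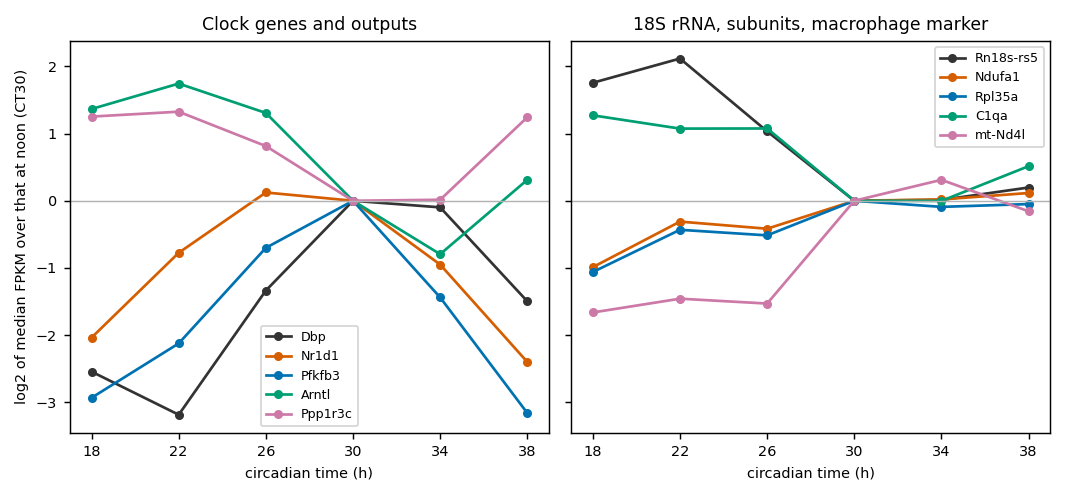
Median FPKM of 8 mice at each of the 6 circadian times (horizontal axis, h), as log2 of the ratio to noon (CT30), for clock genes and outputs (left) and for 18S rRNA, subunit genes and a macrophage marker (right). Pfkfb3 was at 8.04 FPKM at CT18 and 6.87 FPKM at CT38, while Ndufa1 was at 54.4 FPKM at CT18 and 117 FPKM at CT38.

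The library with liver transcripts decided a few values. Hp, encoding haptoglobin (log2 difference 1.69 ± 0.56 (SE), adjusted p 0.047), had a log2 difference of 0.85 ± 0.45 (SE), adjusted p 0.23, without it. Trf, encoding transferrin, changed from 1.63 to 0.88 ± 0.19 (SE), adjusted p 0.0049, Serpina3n from 1.76 to 1.36 ± 0.32 (SE), adjusted p 0.0075, and Apoa1 no longer passed the test (adjusted p 0.056). Fewer proteasome genes were called higher at noon without this library, but the same held whichever mouse was left out.

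The difference between midnight and noon was then compared between KPC and control mice and between genotypes. Of 14878 genes, 0 passed an adjusted p under 0.05 in edgeR for either comparison. At an unadjusted p under 0.05 there were 775 genes (5.21%) for tumor and 573 genes (3.85%) for genotype. DESeq2 called 11 and 1. For Nr1d1 the log2 difference was -2.66 in WT control, -1.58 in WT KPC, -2.15 in FoxP1SkmKO control and -1.70 in FoxP1SkmKO KPC mice, and the adjusted p for tumor was 0.19. For Arntl the values were 0.97, 1.14, 1.5 and 1.75 in the same order, with an adjusted p for genotype of 0.90. With 2 mice in each group, these tests do not show that the groups were alike.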

How the data were processed

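Tibialis anterior RNA was selected by poly-A tail and sequenced in 48 libraries, 16 of which are compared here. The authors deposited raw counts per gene on mm39. Their methods name STAR and HTSeq, while the submitters' processing notes list HISAT2 2.0.5 and DESeq2 1.20.0, and the conflict could not be settled. The authors also deposited FPKM values, counts scaled by gene length and library size, which are used here for levels, and counts divided by size factors and fold changes with p-values of their own comparisons of KPC with control mice, which are not used. Genes with fewer than 2 counts over the libraries of a deposited table were missing from it and were restored from FPKM as 0 or 1 count.

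Groups came from the sample labels. Counts of the 16 libraries were filtered with filterByExpr and scaled by TMM, and time was tested with genotype-by-tumor group as covariate by the quasi-likelihood test of edgeR 4.0.16 (R 4.3.3), with Benjamini-Hochberg adjustment over 14878 genes and a threshold of 0.05. Differences between groups were interaction contrasts in a model with 8 groups. DESeq2 1.42.0 and limma 3.58.1 on log2 FPKM were alternatives. The tests were run on simulated data first. Replicate mice differed by 8.10 to 17.4 times counting noise, so none was a repeat of another library. Depth was 14480867 to 20787784 counts. Nothing says that the mice of a group shared a litter or a day, and p-values measure the spread between these mice.

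Named genes were all clock genes tested, of which 1 is not reported here, the 12 with the largest differences in each direction (adjusted p under 0.05, mean log2 CPM above 0, no clone name, the same direction in all 4 groups) and up to 4 called members of each other list with the smallest adjusted p. The comparison, its members and the lists were chosen with earlier results of these data known. Promoters were taken from a RefSeq table for 10717 of the genes tested.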

Additional observations from a re-analysis of the deposited data

Results flagged for a closer look

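Among 128 named genes at 2 times, 256 groups of 8 mice were searched for a mouse whose gap to its neighbor, as a share of the whole range of log2 CPM, was over Dixon's critical value for 8 samples. A mouse stood apart in 22, and chance alone flags about 1 in 20 groups. The second FoxP1SkmKO KPC mouse at midnight, the library with liver transcripts, accounted for 6.

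At midnight, FoxP1SkmKO KPC mouse 2 lay above the other mice for Becn1 (5.91 FPKM against 4.49 to 5.13 FPKM), Dgat2 (17.1 FPKM against 11.9 to 13.2 FPKM), Ppard (6.19 FPKM against 5.08 to 5.57 FPKM), Rps21 (43.5 FPKM against 29.9 to 34.5 FPKM) and Trf (30.5 FPKM against 1.77 to 5.27 FPKM). At midnight, FoxP1SkmKO KPC mouse 1 lay below the other mice for Col4a2 (11.8 FPKM against 15.3 to 19.1 FPKM). At midnight, FoxP1SkmKO KPC mouse 2 lay below the other mice for Ppargc1a (5.04 FPKM against 6.32 to 7.48 FPKM). At midnight, FoxP1SkmKO control mouse 1 lay below the other mice for Tnni2 (2516 FPKM against 3032 to 3530 FPKM). At midnight, FoxP1SkmKO control mouse 2 lay below the other mice for Sms (11 FPKM against 12.6 to 13.9 FPKM). At midnight, WT control mouse 1 lay below the other mice for Ccn1 (13.0 FPKM against 18.5 to 24.1 FPKM). At noon, FoxP1SkmKO KPC mouse 1 lay above the other mice for Pygm (3122 FPKM against 2680 to 2879 FPKM). At noon, FoxP1SkmKO KPC mouse 2 lay above the other mice for Tbc1d1 (24.3 FPKM against 15.5 to 19.2 FPKM). At noon, FoxP1SkmKO control mouse 1 lay above the other mice for Atg12 (4.06 FPKM against 3.39 to 3.68 FPKM). At noon, FoxP1SkmKO control mouse 2 lay above the other mice for Dgat2 (13.8 FPKM against 9.48 to 10.8 FPKM). At noon, WT control mouse 1 lay above the other mice for Cpt1b (2.33 FPKM against 1.19 to 1.63 FPKM). At noon, FoxP1SkmKO KPC mouse 2 lay below the other mice for Nr1d1 (39.9 FPKM against 54.4 to 70.8 FPKM). At noon, WT KPC mouse 1 lay below the other mice for Cycs (59.7 FPKM against 69.8 to 79.1 FPKM). At noon, WT control mouse 1 lay below the other mice for Sesn2 (0.729 FPKM against 0.903 to 1.08 FPKM), Slc7a8 (1.90 FPKM against 2.66 to 3.37 FPKM) and Usp2 (38.9 FPKM against 46.2 to 51.6 FPKM). At noon, WT control mouse 2 lay below the other mice for Cyp26b1 (0.125 FPKM against 1.0 to 3.75 FPKM) and Hspa1b (0.286 FPKM against 0.499 to 0.638 FPKM). No gene met the threshold for a difference between groups in edgeR.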

How the results depend on the processing

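The counts of 1214 genes higher at midnight and 1185 higher at noon ranged from 969 to 1340 and from 931 to 1233 when each mouse was left out in turn. Leaving out a mouse leaves a group of 1, which is assumed to vary like the others and which loosens the filter on low counts. Under limma on log2(FPKM + 1) with no filter, 713 genes were higher at midnight. Fewer mice gave fewer calls, with 552 and 571 in control mice, 255 and 203 in KPC mice, 595 and 522 in WT mice and 165 and 195 in FoxP1SkmKO mice. With Rn18s-rs5 as a term, an alternative chosen after seeing the data, 37 and 19 were called. Of the 124 named genes that had passed the test, 23 passed with it. Another 99 kept their sign but lost the threshold, and Alb (-9.26) and Apoa1 (-12.63) changed sign and did not pass.

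Calls of a different midnight-noon difference numbered 0 for tumor and 0 for genotype, 11 and 1 in DESeq2, and 0 to 22 and 0 to 4 when each mouse was left out. The 22 came without the first FoxP1SkmKO KPC mouse at noon. With no filter on low counts they numbered 159 and 105, but edgeR then estimated infinite prior degrees of freedom, so a gene's own spread between mice carried no weight, and 155 and 105 of these genes had passed the filter and were not called with it. The 1523 and 1142 genes called between midnight and noon in that fit have the same fault. With a light filter of 32 counts over the 16 libraries, added after the fault was seen, the prior was finite (8.25 for the additive model) and the counts were 1193, 1106, 0 and 0.

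Arntl2, which was not called, changed sign in control mice (-0.15), in WT mice (-0.22) and without the second FoxP1SkmKO KPC mouse at midnight, and ranged from -0.025 to 0.31 when each mouse was left out. Replicate numbers did not pair the mice (correlations of -0.02 to 0.02). The replicate block gave 1215 and 1184 calls with the number as a term, 1142 and 1095 with the number within group, and 0 and 0 for the differences between groups. Of the 124 named genes that passed the test, 16 lost the threshold in at least 1 fit that left out a mouse. All 124 passed under relative log expression scaling, 119 with the gene-length trend removed and 117 with the GC trend removed. Proteasome genes higher at noon numbered 10 to 15 when each mouse was left out, genes of the mitochondrial genome 2 to 4, fast-fiber genes 2 to 5 and erythroid markers higher at midnight 1 to 3.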
